A study of Mus musculus with 8 samples.

Results

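Glutathione S-transferases (GSTs) are described here in livers of mice with a deletion of the actin capping protein gene Capzb directed to hepatocytes. The 10 genes, Gsta1, Gsta2, Gsta3, Gsta4, Gstm1, Gstm2, Gstm3, Gstm4, Gstp1 and Gstt1, were taken by symbol from a table of read counts for 24421 gene symbols. All 10 were found there, and all 10 had enough counts to be among the 12985 genes tested. The table holds 4 libraries labelled WT and 4 labelled CAPZ_KO, made by stranded poly(A) RNA sequencing of perfused liver from C57BL/6N mice aged 8 to 10 weeks. All animals carried floxed alleles of Capzb, the gene of the capping protein beta subunit. CAPZ_KO animals also carried Albumin-CreERT2, a Cre recombinase that is driven by the albumin promoter, and had received daily tamoxifen injections from an age of 4 to 6 weeks. By the series' design text the WT group is either Capzb-fl/fl animals injected with tamoxifen or uninjected animals of the genotype Albumin-CreERT2;Capzb-fl/fl, whereas the treatment label gives the same injections for every WT library. Which genotype each WT library has is not labelled, so that exposure to tamoxifen or to an active Cre cannot be told apart from the deletion. The labels do not state that each library is a separate animal, so p-values measure the spread between these libraries.

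GSTs join glutathione, a tripeptide with a free thiol, to electrophiles such as reactive drug metabolites and the aldehydes formed when lipids are oxidised. The conjugates leave the cell through ABC transporters and are trimmed to mercapturic acids. The soluble enzymes are grouped into classes by sequence: alpha (Gsta), mu (Gstm), pi (Gstp) and theta (Gstt) are the classes of the 10 genes. The adult liver is rich in them, and many are known targets of NRF2, a transcription factor that is held back by KEAP1 until electrophiles modify KEAP1. Others respond to the xenobiotic receptors CAR and PXR or to sex-dependent growth hormone secretion, and Gstp1 is known to be higher in male than in female mouse liver.

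In CAPZ_KO livers 6 of the 10 genes were higher and 1 was lower than in WT. Summed counts of the mu members rose relative to those of the alpha members. Gsta1 (121.2-fold) and Gstm3 (27.2-fold) rose most. Gsta2, Gstm2, Gstm1 and Gsta4 rose by 4.82-fold, 3.77-fold, 3.10-fold and 2.38-fold, while Gsta3, the most abundant alpha gene of the WT libraries, fell 2.66-fold. Gstm4, Gstp1 and Gstt1 were not called. Of all genes tested, 22.4% were called higher and 19.0% lower at an edgeR adjusted p under 0.05, so that calls in this comparison were common. Either call was made for 41.4% of all genes tested. Calls with a change of at least 2-fold were made for 14.1% (higher) and 7.1% (lower) of them, and all 7 called members passed that fold (with library sizes alone as the scaling, Gsta3 was at -0.79 on the log2 scale and did not). A log2 fold change of 4 or more, as in Gsta1 and Gstm3, was reached by 0.955% of genes. The 4 CAPZ_KO libraries lay above all 4 WT libraries for 7 members and for 22.1% of all genes tested, and below them for 1 member and for 18.2% of all genes. Throughout, a value after ± is an SE for a log2 fold change and an SD over the libraries of a group (n = 4) for a level, share or ratio. The median log2 fold change was 1.44 over the 10 genes and -0.003 over all genes tested. The 10 genes were chosen with earlier results of these data known, so this difference is not a test of the family. Scaling by library sizes alone moved the median of all genes to 0.62 and the share of calls that were higher from 54.1% to 91.6%, and the same 7 members were called in the same directions, with Gstm4 added. In bulk tissue, fewer cells of a type and less RNA per cell cannot be told apart, which touches every result given here.

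The members sit in gene clusters whose copies are very alike, and the sequences show which counts can be told apart. Gsta1 (chromosome 9, 78230656 to 78242684, plus strand), Gsta2 (chromosome 9, 78331018 to 78355788, minus strand) and Gsta4 (chromosome 9, 78182774 to 78209349, plus strand) lie in 173.0 kb in the annotation GENCODE vM21 of GRCm38. Between Gsta1 and Gsta2 lie 2 further alpha-like genes, Gm3776 and Gm10639, picked once their values were known. The coding sequence of Gm3776 has 99.7% identity with that of Gsta1 (2 differences in 669 bases), and those of Gsta2 and Gm10639 have 97.6% and 97.0%. A stretch of 60 coding bases, from base 449 to 508 counted from the first base of the Gsta1 start codon, is shown for 3 of these genes because it is where they differ most, with the 5 differing positions in capitals (GENCODE vM21 transcripts).
Gsta1: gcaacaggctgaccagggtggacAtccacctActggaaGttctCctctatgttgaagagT
Gm3776: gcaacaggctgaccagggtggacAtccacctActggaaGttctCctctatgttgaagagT
Gsta2: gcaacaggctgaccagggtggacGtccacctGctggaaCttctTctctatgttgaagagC
Gsta1 and Gm3776 read alike over the whole stretch, while Gsta2 differs at each of the 5 positions.

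Over all annotated transcripts of Gsta1, 90.5% of windows of 50 bases also occur in a transcript of another gene, 75.7% in one of Gm3776. The same share was 49.8% for Gsta2, 33.7% for Gstp1 (all of it with Gstp2), 28.8% for Gstm3, 18.9% for Gstm1 and 5.65% for Gstm2. It was 0.273% for Gsta3, and no such window was found in Gsta4, Gstm4 or Gstt1. How reads matching several genes were counted is not given in the sources used here, so that the division of reads among Gsta1, Gm3776, Gm10639 and Gsta2 is uncertain, and likewise between Gstp1 and Gstp2. If such reads were left out, the levels of genes with many shared windows would be too low. Gstm1 and Gstm3 share 124 windows (8.16% and 9.83% of theirs) and Gstm3 and Gstm6 share 76, which limits the mu ratios and shares that follow in the same way. Alpha members other than the near-copies are further apart: coding identity of Gsta3 with Gsta1 was 74.1%, and that of Gsta4 with Gsta1 66.3%. Among the 4 mu members it was 72.0% to 84.7%.

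The regions just before the start sites were compared among the members, whether or not they share a cluster. RefSeq start-site windows (GRCm38.p6) were found for 9 of the 10 members, 11 windows in all. Gm3776 and Gm10639, which are not members, were left out of this comparison. The 250 bases before the start are shown for the members among the near-copies, Gsta1 (chr9:78230419-78230668, plus strand) and Gsta2 (chr9:78347146-78347395, minus strand), with their longest shared run in capitals. They are shown too for the member that fell, Gsta3 (chr1:21240335-21240584, plus strand), with a motif match in capitals. The RefSeq start of Gsta2 lies within the longer gene span of GENCODE given above.
Gsta1: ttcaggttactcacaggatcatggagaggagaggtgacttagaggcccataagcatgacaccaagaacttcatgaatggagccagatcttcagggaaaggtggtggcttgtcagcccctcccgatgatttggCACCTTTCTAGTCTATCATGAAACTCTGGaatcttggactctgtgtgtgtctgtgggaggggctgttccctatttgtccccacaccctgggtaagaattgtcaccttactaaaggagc
Gsta2: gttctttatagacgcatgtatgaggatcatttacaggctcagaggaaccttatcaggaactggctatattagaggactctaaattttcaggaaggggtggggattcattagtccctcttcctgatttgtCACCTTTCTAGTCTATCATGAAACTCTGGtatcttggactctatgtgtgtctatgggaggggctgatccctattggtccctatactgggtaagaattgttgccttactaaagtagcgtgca
Gsta3: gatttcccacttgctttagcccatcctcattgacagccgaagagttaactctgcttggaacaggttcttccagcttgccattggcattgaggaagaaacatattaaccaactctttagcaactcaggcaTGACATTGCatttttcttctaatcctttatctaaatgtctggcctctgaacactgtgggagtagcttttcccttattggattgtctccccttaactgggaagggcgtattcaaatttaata
The Gsta1 and Gsta2 windows were 70.5% identical and shared a run of 29 bases, while no other pair of members was above 55.1%. The core of the antioxidant response element that NRF2 binds, TGACNNNGC, was searched on both strands and was present in 10.2% of all 32851 RefSeq windows of this length. Among the members it occurred only in the window of Gsta3, 121 bases before the start. That is 1 of 9 members with a window, near the share of all windows, so no reading is made of it. The AP-1 site TGANTCA, which can overlap that core, was present in 6.75% of all windows and among the members only in that of Gstp1, 74 bases before the start. The other windows of members hold neither set of letters, which says nothing about sites further away.

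Members of the alpha class were the most unequal. Gsta1 encodes an alpha enzyme that is barely expressed in untreated mouse liver. Its counts were 7, 19, 5 and 12 in WT 1 to 4 and 1775, 2478, 1759 and 1516 in CAPZ_KO 1 to 4. As CPM, the count divided by library size after TMM scaling for composition, this was 0.751, 1.25, 0.355 and 0.778 in WT and 79.98, 123.4, 106.4 and 77.5 in CAPZ_KO. The lowest CAPZ_KO library stood far above the highest WT library, and the log2 fold change was 6.92 ± 0.317 (edgeR adjusted p = 1.64e-06), the 20th highest of all genes tested. Gm3776, its near-copy, had 13 counts over the WT and 2157 over the CAPZ_KO libraries (log2 fold change 6.81 ± 0.236, edgeR adjusted p = 4.69e-07). Gm10639 had 1 read in all WT libraries and 81 in all CAPZ_KO libraries (ratio 55.9, exact 95% interval 9.75 to 2233 for counting error only).

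Gsta2, the other inducible alpha gene of the cluster, was at 20.7, 7.83, 13.7 and 39.0 CPM in WT and at 65.3, 139.2, 80.6 and 106.5 CPM in CAPZ_KO. The groups did not overlap, with WT 4 the highest WT library. The log2 fold change was 2.27 ± 0.462 (edgeR adjusted p = 0.00433). Summed over Gsta1, Gsta2, Gm3776 and Gm10639, the level was 21.4 ± 13.6 CPM in WT and 223.5 ± 53.8 CPM in CAPZ_KO, a ratio of 10.5, with no overlap between the groups. This sum does not depend on how counted reads were divided among the 4 genes. It does depend on whether reads matching several genes were counted at all, which is not known.

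Gsta4, whose product is specialised for 4-hydroxynonenal, an aldehyde of lipid peroxidation, was at 114.4, 83.0, 70.2 and 119.5 CPM in WT and at 175.4, 296.8, 227.1 and 222.8 CPM in CAPZ_KO. Every CAPZ_KO library was above every WT library, and the log2 fold change was 1.25 ± 0.214 (edgeR adjusted p = 0.00128). Gsta3 is the constitutive alpha gene of mouse liver, and its enzyme detoxifies the epoxide of aflatoxin. It lies apart from the others, on chromosome 1 (21240589 to 21265661, plus strand). It was at 2420, 1564, 2241 and 2100 CPM in WT and at 687.9, 993.6, 648.1 and 801.1 CPM in CAPZ_KO. Here every CAPZ_KO library was below every WT library, with a log2 fold change of -1.41 ± 0.197 (edgeR adjusted p = 4.06e-04).

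**Figure D1:**
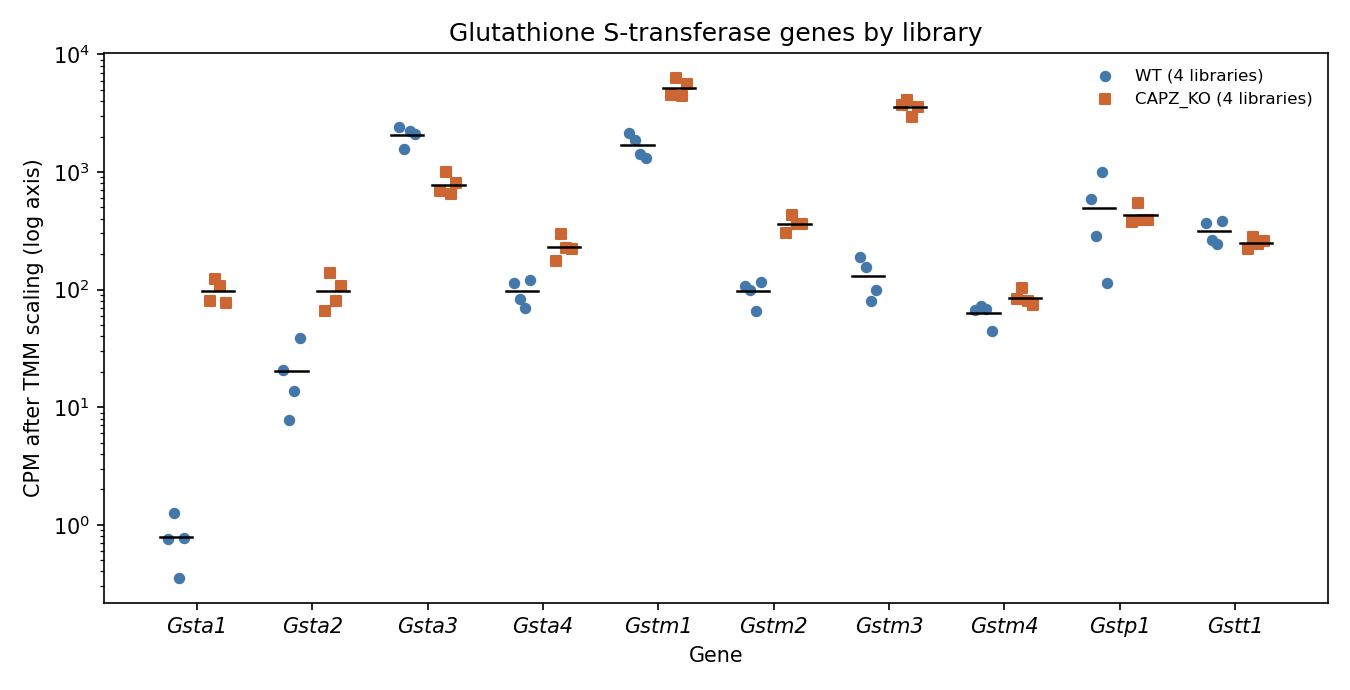
CPM after TMM scaling (log axis) of the 10 genes in each of 4 WT libraries (circles) and 4 CAPZ_KO libraries (squares), with the group mean as a line. The squares of Gsta1 lie at 77.5 to 123.4 CPM against 0.355 to 1.25 for its circles, those of Gsta3 lie below its circles, and the Gstp1 circles spread from 113.3 to 1004 CPM.

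In the mu class 3 of 4 members rose. Gstm3 (chromosome 3, 107963696 to 107969283, minus strand) was at 190.9, 155.2, 79.8 and 99.3 CPM in WT and at 3688, 4076, 2960 and 3549 CPM in CAPZ_KO. The lowest CAPZ_KO library was many times above the highest WT library, and the log2 fold change was 4.76 ± 0.307 (edgeR adjusted p = 7.91e-06), the 71st highest of all genes tested. Gstm1 (108012255 to 108017973, minus strand), the main mu enzyme of mouse liver, was at 2145, 1856, 1410 and 1313 CPM in WT and at 4480, 6306, 4420 and 5627 CPM in CAPZ_KO. Its log2 fold change was 1.63 ± 0.212 (edgeR adjusted p = 2.77e-04), with no overlap between the groups.

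Gstm2 (107981702 to 107986453, minus strand), a close relative between Gstm3 and Gstm1, was at 108.1, 98.3, 65.2 and 114.9 CPM in WT and at 303.2, 431.8, 360.4 and 362.6 CPM in CAPZ_KO. The groups were apart and the log2 fold change was 1.92 ± 0.197 (edgeR adjusted p = 8.08e-05). Gstm4 (108040408 to 108044894, minus strand) was at 66.6, 72.2, 67.7 and 44.8 CPM in WT and at 83.2, 102.2, 79.2 and 73.4 CPM in CAPZ_KO. Its groups did not overlap either, as in 40.3% of all genes tested, but by edgeR it missed the threshold (log2 fold change 0.43 ± 0.169, adjusted p = 0.0659). With the sex of the animals as a term the adjusted p was 0.0198, with the replicate block 0.0263, and without WT 4 0.13.

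The 7 mu genes of chromosome 3 lie next to each other in 149.1 kb, with no other protein-coding gene between them, and did not move together. In order along the chromosome, Gstm5 had a log2 fold change of 0.66 ± 0.154, Gstm7 of -0.98 ± 0.148 and Gstm6 of -0.45 ± 0.202, followed by Gstm3, Gstm2, Gstm1 and Gstm4. Gstm5 was called higher (edgeR adjusted p = 0.00672), Gstm7 lower (edgeR adjusted p = 6.52e-04) and Gstm6 not (edgeR adjusted p = 0.0974, and 0.0375 with the replicate block). Rises above 2-fold were those of 3 adjacent genes, Gstm3, Gstm2 and Gstm1. With library sizes alone Gstm4 (1.06, adjusted p = 3.35e-04) and Gstm5 (1.29, adjusted p = 8.51e-05) passed that fold too, and Gstm7 was not called (-0.35, adjusted p = 0.0502). Exons of Gstm5 overlap those of a gene on the opposite strand. On chromosome 9 the 5 alpha genes from Gsta4 to Gsta2 were all called higher.

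**Figure D2:**
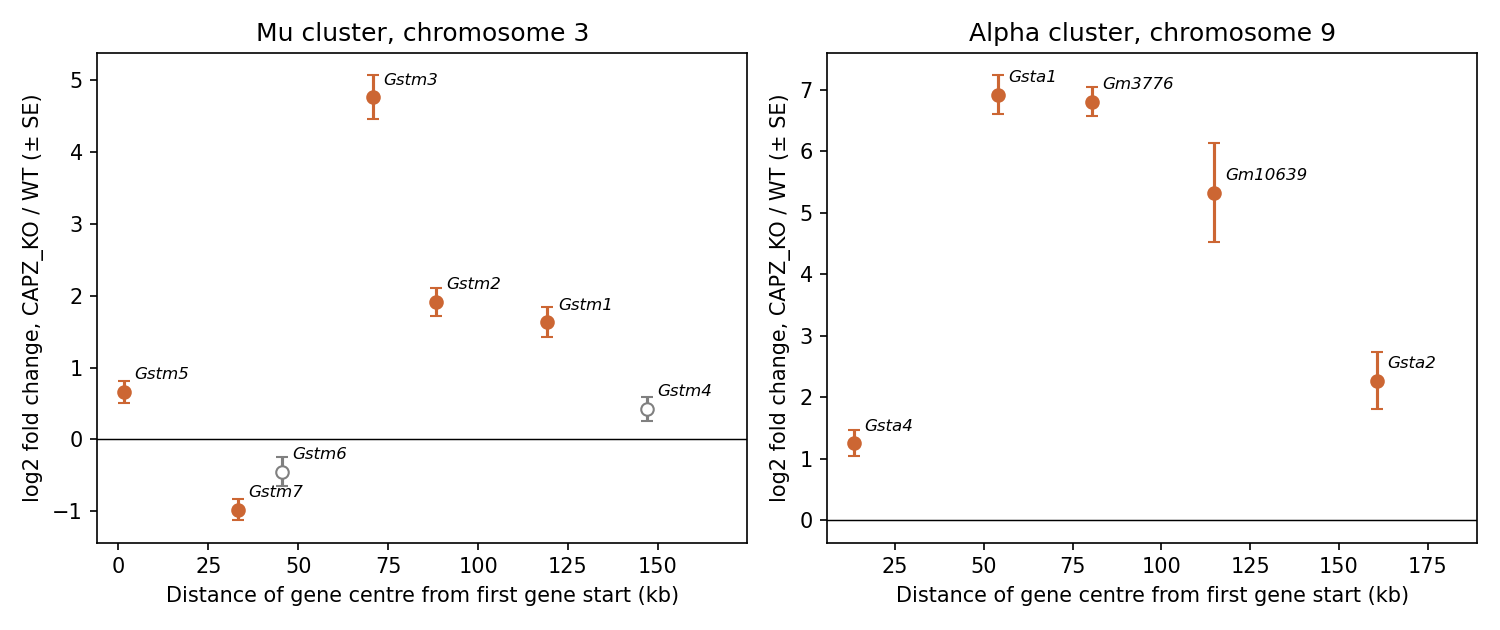
log2 fold change (CAPZ_KO over WT, ± SE) of each GST gene against the distance of its centre from the start of the first gene of the cluster (kb), for the mu cluster (left) and the alpha cluster (right); filled points passed an edgeR adjusted p of 0.05. Gstm3 at 4.76 lies between Gstm6 at -0.45 and Gstm2 at 1.92, while in the alpha cluster Gsta1 and Gm3776 stand highest.

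Whether members of a class moved by different amounts was asked from the ratio of their counts within each library, which does not depend on scaling between libraries. In 11 of 12 pairs of alpha or of mu members the 4 CAPZ_KO ratios did not overlap the 4 WT ratios (exact two-sided permutation p = 0.0286 each, the smallest that 70 arrangements allow, and 0.0312 adjusted over the 12 pairs). The same held for 41.7% of all pairs of genes tested, and the 12 pairs reuse 8 genes, so they are not independent. The exception was Gstm1 over Gstm2, whose log2 ratio was 4.12 ± 0.414 in WT and 3.83 ± 0.148 in CAPZ_KO (exact permutation p = 0.286). Its CAPZ_KO values of 3.62 to 3.96 lay within the WT range of 3.51 to 4.43. Gstm1 over Gstm3 went from 3.73 ± 0.289 to 0.54 ± 0.176, so that counts of Gstm3 came close to those of Gstm1. Gsta1 over Gsta3 went from -11.41 ± 0.918 to -3.02 ± 0.316. Gsta1 over Gsta2 went from -4.51 ± 1.31 to 0.02 ± 0.401, a ratio that the uncertain division of reads touches.

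**Figure D3:**
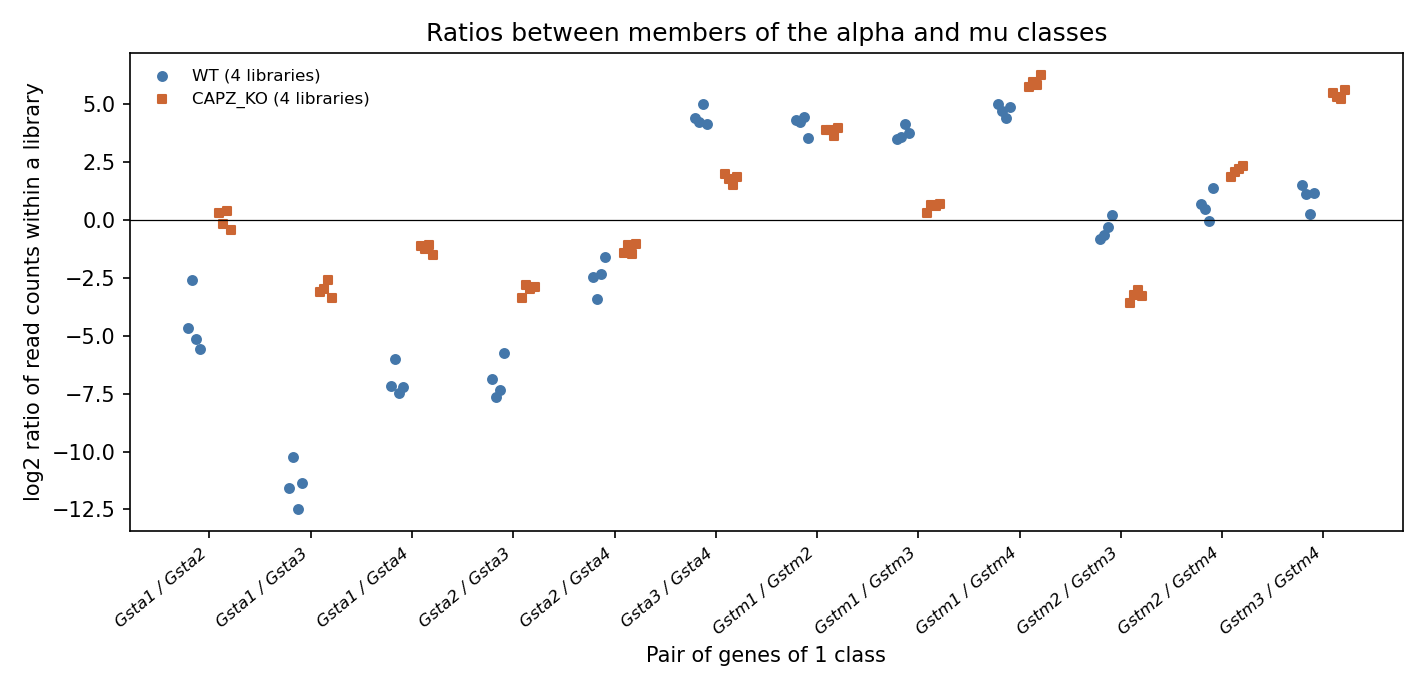
log2 ratio of the read counts of 2 genes within each library (0.5 added to each count), for the 6 alpha and 6 mu pairs, with WT as circles and CAPZ_KO as squares. Squares and circles overlap for Gstm1 over Gstm2 only, where squares span 3.62 to 3.96.

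The makeup of the 10 genes' summed level was read per length, as CPM per kb of the union of annotated exons. Gstm1 took 46.8% ± 7.14 of it in WT and 46.9% ± 2.25 in CAPZ_KO. Gstm3 took 4.08% ± 1.25 in WT and 36.4% ± 2.91 in CAPZ_KO, while Gsta3 took 19.8% ± 3.52 and 2.39% ± 0.118. The shares of Gstm1 overlapped between the groups, while those of Gstm3 and Gsta3 were apart in opposite directions. Gstt1 took 8.68% ± 2.70 in WT and 2.20% ± 0.203 in CAPZ_KO, with no overlap, and Gstp1 12.7% ± 9.67 and 3.67% ± 0.331, with overlap. The summed level was 2438 ± 421.3 CPM per kb in WT and 7511 ± 1103 in CAPZ_KO, a ratio of 3.08. Without division by length it was 4985 ± 798.4 and 11111 ± 1669 CPM, a ratio of 2.23. Without Gstm1 and Gstm3 the sums were 1197 ± 278.7 and 1253 ± 219.1 CPM per kb, a ratio of 1.05. In CPM, not divided by length, the mu members together over the alpha members stood at 0.696 to 1.32 in the WT libraries. In the CAPZ_KO libraries this ratio was 7.03 to 8.48. The mu sum went from 1972 ± 452.9 to 9225 ± 1346 CPM and the alpha sum from 2199 ± 383.4 to 1208 ± 245.0 CPM. The fall of the alpha sum rests on Gsta3, the only alpha member that fell, and both ratio and sum depend on its length. The exon model of Gsta3 is long (4.344 kb, against 663 coding bases), which lowers its level per kb and its weight in every sum per kb. Without division by length Gsta3 took 41.9% ± 5.40 in WT and 7.01% ± 0.322 in CAPZ_KO.

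**Figure D4:**
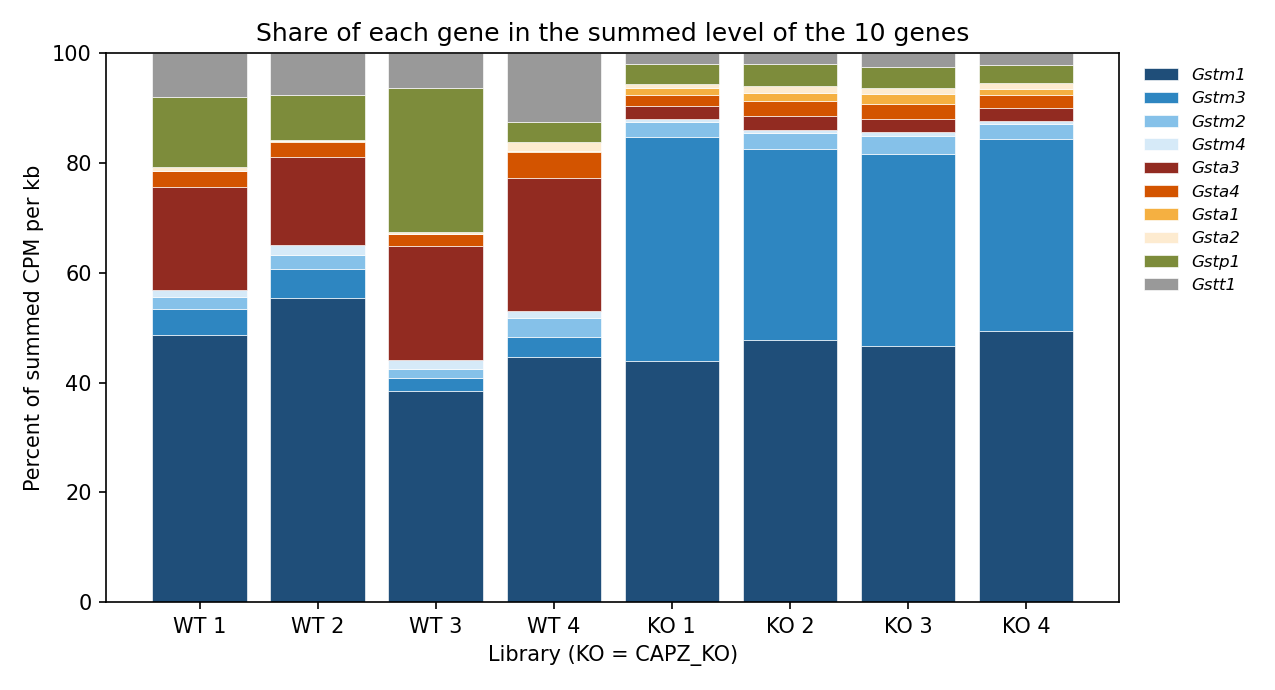
Percent of the summed CPM per kb of the 10 genes taken by each gene, as stacked bars from 0 to 100, for each of the 4 WT and 4 CAPZ_KO libraries. Gstm3 takes 34.7% to 40.7% in CAPZ_KO libraries against 2.45% to 5.21% in WT, and the Gstp1 share differs most among the WT libraries.

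By level per kb the order in WT was Gstm1 (1141 ± 264.2), Gsta3 (479.1 ± 84.8), Gstp1 (322.3 ± 252.1), Gstt1 (206.6 ± 46.8), Gstm3 (100.2 ± 38.9), Gsta4 (76.4 ± 18.9), Gstm2 (57.6 ± 13.1), Gstm4 (36.8 ± 7.18), Gsta2 (17.3 ± 11.5) and Gsta1 (0.820 ± 0.383; all in CPM per kb). In that order the ranges of neighbours were apart at 3 steps: Gstm1 above Gsta3, Gstt1 above Gstm3 and Gsta2 above Gsta1. In CAPZ_KO the order was Gstm1 (3536 ± 623.9), Gstm3 (2722 ± 352.9), Gstp1 (276.0 ± 53.0), Gstm2 (217.1 ± 31.3), Gsta4 (182.1 ± 39.5), Gsta3 (180.2 ± 35.6), Gstt1 (163.8 ± 15.9), Gsta1 (101.3 ± 23.05), Gsta2 (83.2 ± 27.5) and Gstm4 (49.5 ± 7.29; all in CPM per kb). There the ranges were apart at 2 steps, Gstm3 above Gstp1 and Gstt1 above Gsta1, and Gsta4 was above Gsta3 in 2 of 4 libraries. Both steps that involve Gsta3 depend on its long exon model: in CPM Gsta3 was above Gstm1 in 3 of 4 WT libraries and above Gsta4 in 4 of 4 CAPZ_KO libraries.

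Gstp1 and Gstt1 were not called, and Gstp1 differed most among the controls. Gstp1 (chromosome 19, 4035407 to 4037985, minus strand), the pi enzyme, was at 591.0, 287.6, 1004 and 113.3 CPM in WT and at 376.9, 549.8, 390.3 and 391.7 CPM in CAPZ_KO. The WT values straddled all CAPZ_KO values (log2 fold change -0.22 ± 0.540, edgeR adjusted p = 0.762). By Xist and Y-linked genes, WT 4 and CAPZ_KO 4 came from females and the other 6 libraries from males. WT 4 held the lowest Gstp1 of its group, whereas CAPZ_KO 4 lay between the males of its group. With 1 female per group no difference between the sexes was tested. The coefficient of variation of Gstp1 was 78.2% in WT and 19.2% in CAPZ_KO. It was larger in WT for 9 of the 10 members, all but Gsta3, and for 69.1% of all genes tested.

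Gstt1 (chromosome 10, 75783813 to 75798584, minus strand), the theta enzyme that metabolises small halogenated compounds, was at 369.2, 263.5, 245.1 and 384.9 CPM in WT and at 220.4, 278.6, 245.0 and 257.2 CPM in CAPZ_KO. The groups overlapped (log2 fold change -0.33 ± 0.176, edgeR adjusted p = 0.153). WT 4 was the highest WT library for Gstt1, as it was for Gsta2, Gsta4 and Gstm2. Leaving out both female libraries, an alternative added after the data were seen, kept the 6 higher calls and the 1 lower call.

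Among other soluble GSTs, of 10 tested and 15 listed, 1 was higher (Gstm5) and 4 were lower (Gstm7, Gstk1, Gstz1 and Gsto1), with a median log2 fold change of -0.57. The shares of all genes tested were 22.4% higher and 19.0% lower. Gstz1, the maleylacetoacetate isomerase of tyrosine breakdown, went from 1038 ± 95.5 to 414.6 ± 81.8 CPM (edgeR adjusted p = 2.91e-04), and its exons overlap those of genes on the opposite strand. Gstk1, the mitochondrial and peroxisomal kappa enzyme, had a log2 fold change of -1.02 ± 0.210 and Gsto1, the omega enzyme, of -0.69 ± 0.162. With library sizes alone as the scaling Gstm7, Gstk1 and Gsto1 were not called (-0.35, -0.41 and -0.08, edgeR adjusted p = 0.0502, 0.0766 and 0.65). Gstt2, Gstt3, Gstp2 and Hpgds had -0.45, -0.86, 0.51 and 1.51 (edgeR adjusted p = 0.225, 0.0758, 0.344 and 0.0571). With library sizes alone Gstp2 and Hpgds were called higher (1.14 and 2.11, adjusted p = 0.0335 and 0.0102). Exons of Gstt3 overlap those of Gm20441 on the same strand. Hpgds, the prostaglandin D synthase of the sigma class, and Gstt3 were called by DESeq2 (adjusted p = 0.0166 and 0.0275) and with the replicate block (adjusted p = 0.0204 and 0.0273). Gstt4 and Gsto2 had too few counts to be tested.

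The membrane-bound proteins, which belong to an unrelated family, had 4 of 6 genes tested. Mgst1, the abundant microsomal GST of hepatocytes, fell from 4439 ± 859.1 to 1832 ± 223.0 CPM (edgeR adjusted p = 4.41e-04). Mgst3 rose by 1.35 ± 0.269 on the log2 scale (edgeR adjusted p = 0.00313). Alox5ap and Ltc4s, which serve leukotriene synthesis in myeloid cells, rose by 2.05 ± 0.286 and 2.03 ± 0.390 (edgeR adjusted p = 4.11e-04 and 0.00243), and in the same libraries 8 of 9 markers of monocyte-derived macrophages were higher. The part of those cells in these rises was not tested. Mgst2 and Ptges were not tested.

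Of 14 genes of glutathione supply and recycling, 5 were higher and 4 lower, with a median log2 fold change of 0.18. Calls were made both ways among all genes tested too, 22.4% higher and 19.0% lower. Slc7a11, the cystine carrier, had 1 read in all WT libraries and 684 in all CAPZ_KO libraries (ratio 471.7, exact 95% interval 84.4 to 18656 for counting error only). The CAPZ_KO libraries differed, with 406, 171, 90 and 17 reads, and the log2 fold change of 8.32 was 7.53 without CAPZ_KO 1 and 10.12 without WT 4. Gss, glutathione synthetase, rose from 97.0 ± 12.5 to 216.4 ± 21.5 CPM (edgeR adjusted p = 1.86e-04). Gsr, glutathione reductase, rose by 0.79 ± 0.158 on the log2 scale (edgeR adjusted p = 0.00311), and Slc1a4, a neutral amino acid carrier, by 2.48 ± 0.379. Gclc, the catalytic subunit of the rate-limiting ligase, rose by 0.58 ± 0.168 (edgeR adjusted p = 0.0187), a call that was lost without WT 3, CAPZ_KO 1 or CAPZ_KO 2 (adjusted p = 0.055, 0.0681 and 0.0561). Its partner Gclm was at 161.9 ± 24.9 and 176.5 ± 10.6 CPM (edgeR adjusted p = 0.495), and was called higher with library sizes alone (0.75, adjusted p = 0.00108). Ahcy, which forms homocysteine on the way to cysteine, fell from 676.7 ± 233.0 to 142.9 ± 72.7 CPM (edgeR adjusted p = 0.00141), and Cbs, Mat1a and Gnmt of the same route, chosen after their values were seen, were also called lower, while Cth and Bhmt were not called.

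Of 12 genes of glutathione breakdown and mercapturate processing, 3 were higher and 6 lower (median -0.64). Beside this list and the next stand 22.4% higher and 19.0% lower among all genes tested. Ggt1, the gamma-glutamyltransferase that starts the trimming of conjugates, rose from 0.077 ± 0.020 to 1.007 ± 0.138 CPM (edgeR adjusted p = 1.40e-04), a low level in both groups. Acy3, Anpep and Chac2, which act on mercapturates, cysteinylglycine and glutathione, had -1.17, -0.86 and -1.23 (edgeR adjusted p = 1.19e-04, 9.93e-04 and 0.00135), and Anpep was not called with library sizes alone (-0.24, adjusted p = 0.161). Of 14 peroxidases, glutaredoxins and glyoxalases, 4 were higher and 5 lower (median -0.27). Gpx2, the peroxidase of gut epithelium, had 3 reads in all WT libraries and 484 in all CAPZ_KO libraries (ratio 111.3, exact 95% interval 37.8 to 541.3 for counting error only), and its log2 fold change of 6.61 was 7.51 without WT 4. Gpx3 and Gpx4, the secreted and the lipid peroxidase, rose by 2.59 and 1.12, and Hagh, glyoxalase II, had -1.52 (edgeR adjusted p = 8.24e-05, 6.17e-04 and 6.24e-05).

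Among 8 transporters for export of conjugates 3 were higher and 1 lower (median 0.20), against 22.4% and 19.0% of all genes tested. The main canalicular and basolateral carriers did not pass: Abcc2 was at 347.8 ± 128.0 and 344.7 ± 45.1 CPM, and Abcc3 at 385.1 ± 179.8 and 396.0 ± 82.8 CPM (edgeR adjusted p = 0.973 and 0.926). Abcc4, Abcc5 and Abcc1 rose by 2.14, 1.39 and 1.10 (edgeR adjusted p = 0.00573, 7.13e-04 and 0.0112), Abcc4 by 2.73 without WT 4. Abcc6 had -1.71 (edgeR adjusted p = 3.22e-05).

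Of 18 other NRF2 targets tested, 10 were higher and 1, Me1, was lower (median 0.98). The shares of all genes tested were 22.4% higher and 19.0% lower, also for the regulators below. Genes of glutathione supply and of export, whose calls were mixed, are not counted in this list. Cbr3, a carbonyl reductase, rose from 0.916 ± 0.347 to 34.2 ± 9.73 CPM (edgeR adjusted p = 6.57e-06), and Nqo1, the quinone reductase, from 12.9 ± 5.52 to 60.1 ± 18.5 CPM (edgeR adjusted p = 6.09e-04). Srxn1, Ugdh and Pgd rose by 2.64, 1.73 and 1.39. Hmox1, Txn1, Taldo1, Tkt, Ftl1, Fth1 and Osgin1 of the same list were not called. Of 21 tested genes that regulate GSTs, 6 were higher and 9 lower (median -0.34). Nfe2l2, the gene of NRF2, rose from 73.4 ± 4.80 to 214.0 ± 40.7 CPM (edgeR adjusted p = 7.01e-05), Jun by 2.43 and Atf3 by 3.32, while Keap1 was at 59.2 ± 6.39 and 56.7 ± 1.43 CPM (edgeR adjusted p = 0.69) and was called higher with library sizes alone (0.57, adjusted p = 0.00155). Cebpa, a hepatocyte factor, had -1.22 (edgeR adjusted p = 2.61e-04).

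Other conjugating enzymes mostly fell. Of 18 phase II genes of other families, 1 was higher (Tpmt) and 11 lower, with a median of -0.95. The shares of all genes tested were 22.4% higher and 19.0% lower. Sult2a8 and Sult1b1, sulfotransferases, had -9.98 and -2.13, Ugt2b1, a glucuronosyltransferase, -3.46, and Inmt, an N-methyltransferase, -3.21 (edgeR adjusted p = 4.69e-07, 1.42e-04, 8.22e-05 and 6.74e-05).

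**Figure D5:**
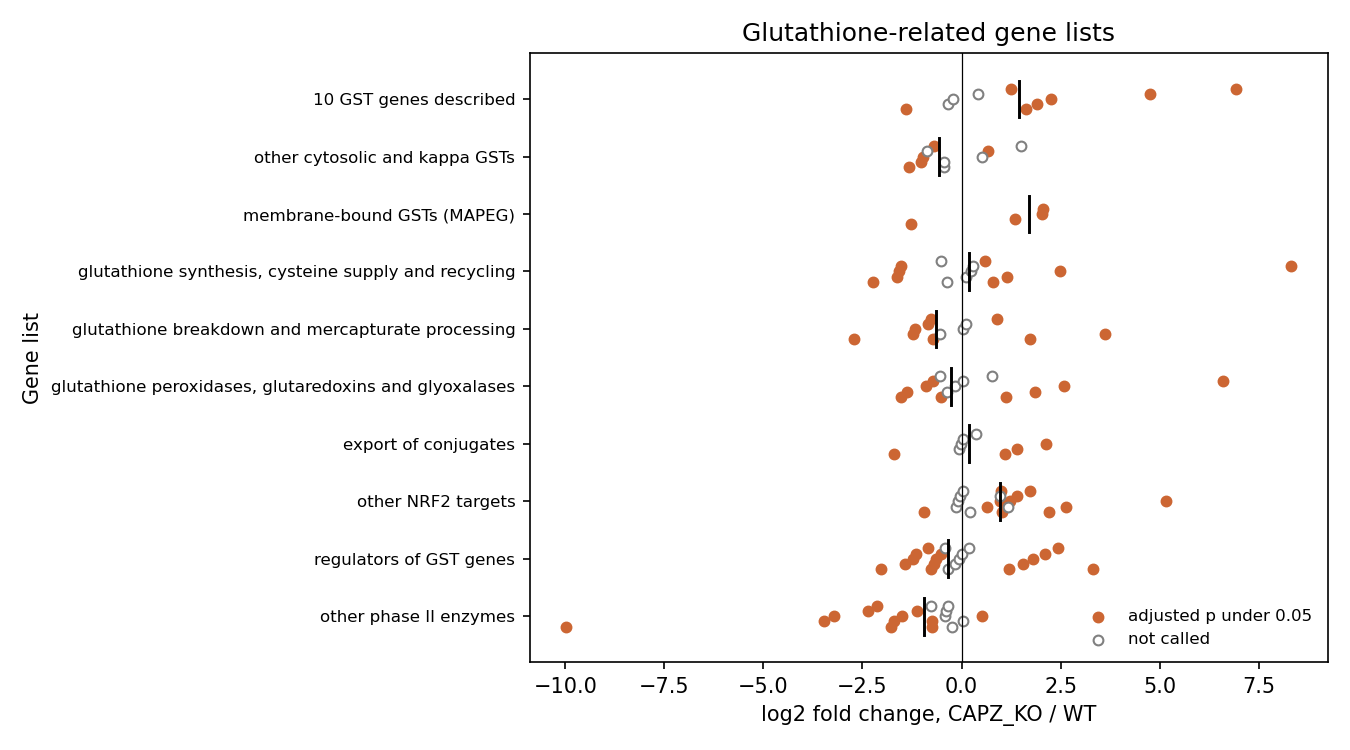
log2 fold change (CAPZ_KO over WT) of each tested gene of the 10 members and 9 further lists; filled points passed an edgeR adjusted p of 0.05 and vertical bars are list medians. The members' median of 1.44 stands beside -0.57 for the other cytosolic and kappa GSTs and -0.95 for other phase II enzymes. Members and lists were chosen with earlier results of these data known, so these medians are a description and not a test.

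Markers of several cell types moved in the same libraries, where 22.4% of all genes tested were called higher and 19.0% lower. Hepatocyte markers were lower in 11 of 12 genes (median -1.56), with a summed level of 175040 to 219380 CPM in WT and 42764 to 65121 in CAPZ_KO, and none of the 12 was at 0 in either group. Cholangiocyte markers were higher in 8 of 11 tested (median 3.07, summed 92.8 to 146.2 CPM in WT and 449.1 to 1273 in CAPZ_KO), with Krt7, Krt19 and Cdh1 not called. Monocyte-derived macrophage markers were higher in 8 of 9 (summed 319.6 to 508.1 and 612.2 to 876.0 CPM) and stellate cell and fibroblast markers in 9 of 10 (365.9 to 437.9 and 915.0 to 1425 CPM). Kupffer cell markers were higher in 3 of 7 and neutrophil markers in 2 of 5. Endothelial markers were higher in 2 of 8 (median -0.08), near the share of all genes. Summed markers of T and NK cells stood at 4.54 to 20.7 CPM in WT and 9.37 to 17.0 in CAPZ_KO, and those of B and plasma cells at 6.32 to 32.9 and 15.5 to 27.7. Of the erythroid markers Alas2 was lower and 4 globin genes were at 0 in all libraries. The part of any of these cells in the GST results was not tested. The level of Capzb, the targeted gene, fell from 120.2 ± 13.4 to 72.5 ± 6.80 CPM in whole tissue (edgeR adjusted p = 0.00134), and with library sizes alone its log2 fold change was -0.10 (adjusted p = 0.442). Total counts per library were 12060350 to 18916315, of which the 10 genes took 0.353% to 0.466% in WT and 1.199% to 1.57% in CAPZ_KO.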

How the data were processed

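Mouse liver RNA was sequenced in 8 libraries (4 WT, 4 CAPZ_KO), and the authors deposited 1 table of raw read counts per gene symbol. The submitters' processing notes name bcl2fastq, STAR 2.5.3a, featureCounts, R 3.3.1, edgeR and the build mm10. Not given in the sources used here are the annotation, the strand setting and how reads matching several genes were treated.

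From the counts, genes were filtered with filterByExpr (minimum count 10, minimum total count 15), which removed 0.045% to 0.109% of counts per library, and scaled by TMM (factors 0.774 to 0.847 in WT, 1.18 to 1.33 in CAPZ_KO). The test was edgeR's quasi-likelihood test (edgeR 4.0.16, limma 3.58.1, R 4.3.3) over 12985 genes (Benjamini-Hochberg adjustment, threshold 0.05). Precision depends on depth and on the spread between libraries, and the biological coefficient of variation was 24.9%. Within-library ratios were compared by exact permutation tests (scipy 1.17.1). No 2 libraries were duplicates: chi-square per degree of freedom within groups was 26.4 to 153.3. On simulated counts for this comparison (12985 genes), 2 of 50 genes changed 1.5-fold, 25 of 50 changed 2-fold, 45 of 50 changed 4-fold and 50 of 50 changed 8-fold were recovered, and 8 of 12785 unchanged genes were called. There 12785 of the 12985 genes were unchanged, whereas 41.4% of all genes tested were called between the WT and CAPZ_KO libraries. How many genes are recovered or wrongly called when that many differ was not tested.

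Positions, exon lengths and coding sequences came from GENCODE vM21 (GRCm38), and start-site windows from RefSeq (GRCm38.p6). No protein sequences were used here, and coding bases were aligned instead (Biopython 1.88). The members and the gene lists were chosen with earlier results of these data known. Named genes are the members, every tested gene of the other GST lists, up to 4 called genes with the smallest p of each further list, and Nfe2l2, Keap1, Gclc, Gclm, Gsr, Abcc2, Abcc3, Abcc4, Nqo1 and Capzb. Gm3776, Gm10639 and genes named without a value were named after their values were seen. Alternatives were other scalings, filters and tests (DESeq2 1.42.0, limma-voom), a replicate block, a sex term and omission of each library in turn. Omission of both female libraries was chosen after seeing the data.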

Additional observations from a re-analysis of the deposited data

Results flagged for a closer look

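Of 132 groups of 4 libraries, all but Gstt4 in CAPZ_KO (0 in every library) could be examined. In 13 of them 1 library stood apart from the other 3 by more than Dixon's limit, and chance alone gives about 1 in 20. Among the members it was 1 of 20 groups: Gstp1 in CAPZ_KO 2 was at 549.8 CPM, with the others at 376.9 to 391.7. WT 1 stood high for Gstm6 at 223.7 CPM (others 127.0 to 132.7), Mgst1 at 5716 CPM (3853 to 4116), Slc1a4 at 10.5 CPM (3.76 to 4.34), Gclc at 272.0 CPM (213.9 to 222.8) and Ggt1 at 0.107 CPM (0.065 to 0.071), the last on a single count. WT 4 stood high for Anpep at 182.9 CPM (138.3 to 144.3) and Gm3776 at 0.324 CPM (0.197 to 0.215), and held the single WT count of Slc7a11 and of Gm10639 (0.065 CPM each, others at 0). WT 3 held the single WT count of Gstt4 (0.071 CPM, others at 0). A single count against 0 in the other libraries passes the limit by construction, so the rate of 1 in 20 does not apply there. Among the CAPZ_KO libraries, CAPZ_KO 3 stood high for Gstp2 at 5.14 CPM (2.12 to 2.45) and CAPZ_KO 4 low for Cbr3 at 19.7 CPM (37.7 to 40.7).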

How the results depend on the processing

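The 6 higher and 1 lower member calls were made in all 19 alternatives, and Gstm4 was added as higher by upper-quartile scaling, library sizes alone, the replicate block and the sex term. With library sizes alone 7665 genes were called higher and 700 lower, against 2913 and 2469. Leaving out 1 library gave 2371 to 2964 higher and 2100 to 2658 lower. The uncalled log2 fold change of Gstp1 changed sign with library sizes alone (0.41), limma-voom (0.16), the replicate block (0.17) and the sex term (0.016), and ranged from -0.56 without WT 4 to 0.36 without WT 3. With library sizes alone Gstt1 (0.28), Gstm6 (0.19), Gstt2 (0.15), Keap1 (0.57) and Abcc2 (0.60) changed sign too, and Keap1, Gclm, Gstp2 and Hpgds were called higher. Keap1 was at 0.0204 with upper-quartile scaling, and Abcc2 at 0.0748 with upper-quartile scaling, 0.096 with limma-voom, 0.0723 with the replicate block and 0.0418 without both females. Without 1 library Abcc2 ranged from -0.26 (WT 1) to 0.13 (WT 3) and Abcc3 from -0.15 (WT 3) to 0.34 (WT 2). In each case the cause was not tested.

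The labels do not say that replicate numbers pair the samples. Deviations of same-numbered samples correlated at 0.245, 0.025, 0.085 and 0.301. WT 1, WT 3 and WT 4 correlated best with the CAPZ_KO library of their own number. For WT 2 the best was 0.030, with another number. Both libraries numbered 4 came from females, and whether the numbers mark pairs was not tested. The replicate block called 2974 genes higher and 2411 lower, and 7 members higher and 1 lower.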
